A study of Rattus norvegicus with 4 samples.

Results

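The nucleosome-sparse windows of rat chromosome 2 (build rn6) are stretches of 100 kb in which few nucleosome positions were called in control sperm. They were chosen by counting the positions of the table that joins both control libraries in successive 100 kb windows and keeping windows with 20 to 288 positions. This gave 523 of 2665 windows, or 52.3 of 266.5 Mb (19.6% of the windows). Another 58 windows fell below 20 positions, 10 of them with none, and the 2084 windows with more than 288 positions (289 to 478, median 367) are called the other windows here. Because control positions made the choice, the control values below describe the windows and test nothing. The treated libraries took no part in it.

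In mammalian sperm most histones are exchanged for protamines during the last steps of spermatogenesis, and nucleosomes persist over a minor part of the genome. Micrococcal nuclease cuts DNA that is not protected by a nucleosome, so the protected fragments can be sequenced to map what remains. How evenly these remaining nucleosomes are spread, in gene-rich and in gene-poor DNA, has been debated.

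All rats were Holtzman males aged 75 days, with 6 animals in each group, and dosing by mouth lasted 60 days. The control group was kept on sterile water only. One treated group received cyproterone acetate, a steroid that blocks the androgen receptor and acts as a progestogen, at 20 mg/kg/day. The other received tamoxifen, which modulates estrogen receptors, at 0.4 mg/kg/day. Sperm were taken from the cauda of the epididymis, treated with DTT for 2 hours, and inspected by microscopy for round cells. Sperm were digested with 4 units of nuclease for 2 minutes at 37 °C, and fragments near 150 bp were cut from a gel. The controls gave 2 libraries and each treatment gave 1, and the number of animals behind a library is not stated. There is therefore no replicate check for either treatment, and no test between groups is given. DNA positions carry no marker of cell type, so the labelled cell type could not be checked. A library pools many sperm, so fewer sperm with a nucleosome at a site and fewer fragments recovered per sperm cannot be told apart.

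Reads at the called positions of chromosome 2 numbered 1067555 and 1170574 in the controls, 1563294.5 with cyproterone acetate and 1311684.5 with tamoxifen, counted in steps of 0.5 reads from the deposited coverage at each summit. The controls are named by these totals, the shallower and the deeper. The control table held 868880 positions, that of cyproterone acetate 969963 and that of tamoxifen 895443. All intervals are 95% intervals that treat these reads as independent counts and cover counting error only.

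The limit cut through a continuous range of windows. Positions per sparse window had a median of 225, with quartiles of 142 and 266. Only 90 windows held 100 positions or fewer, 121 held 101 to 200 and 312 held more than 200. Of the 8 windows with 288 positions, just inside the upper limit, the 5 nearest the start of the chromosome, from 1200001, 59400001, 71300001, 75400001 and 97100001, had from 291.5 to 700.5 reads in the shallower control. The 5 windows just outside, starting at 11600001, 55200001, 66000001, 137800001 and 150500001, each had 289 positions and from 310 to 387.5 reads there. At the lower limit the windows from 68800001, 195300001 and 254000001 had 20 positions, that from 7200001 had 21 and that from 129500001 had 22. Just below it, the windows from 77100001, 114800001 and 163100001 had 19 positions, that from 233900001 had 18 and that from 35900001 had 17. Their reads were alike, 15.5 to 43 in the shallower control outside the limit and 18 to 48 inside it. The sparse windows are thus the low end of one distribution and not a class set off by a gap.

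Sparse windows were found along the whole chromosome but not evenly. Successive segments of 10 Mb held a median of 17 of them. The fewest, 2, lay between 180 and 190 Mb, and the most, 55, between 160 and 170 Mb. The segments from 190 to 200 Mb, 150 to 160 Mb, 70 to 80 Mb and 130 to 140 Mb followed with 45, 38, 35 and 33. The 20 Mb from 150 to 170 Mb held 93, which is 17.8% of all sparse windows on 7.50% of all windows.

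Adjoining sparse windows were joined into 291 domains. Most were short, with 190 single windows and 55 pairs. The 46 domains of 3 or more windows held 223 windows, 42.6% of all, and the 5 longest alone held 63 windows or 6.3 Mb. The windows with fewer than 20 positions were always close by. They formed 34 runs, and each of the 34 had a sparse window beside it. With those windows counted as well, a choice made after seeing the data, there were 267 domains and the longest grew from 18 to 30 windows, chr2:161100001-164100000. The next was then chr2:158700001-161000000 with 23 windows.

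The longest domain, chr2:161300001-163100000, ran over 18 windows with 37 to 288 positions each (median 79.5). In this domain 45.6% of 1 kb bins held a position in any of the 3 tables, and the longest stretch without one inside a window was 62503 bp. The domain chr2:159800001-161000000 had 12 windows with a median of 70 positions, 41.2% of bins occupied and an empty stretch of 54245 bp. The domain chr2:196700001-197700000 was much like it, with 10 windows, a median of 86, 43.7% of bins occupied and an empty stretch of 49485 bp. The other two were fuller. The domain chr2:156000001-156900000 had 9 windows, a median of 197 positions and 54.6% of bins occupied, and the domain at the very start of the chromosome, chr2:1-1400000, had 14 windows, a median of 216 and 69.0% of bins occupied. The domains named here, the longest ones, thus ranged from 41.2% to 69.0% of bins occupied, below the 94.4% of the other windows. Shorter domains could lie outside this range, as did chr2:76500001-77000000 with 39.8%.

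A low position count combines how much of a window holds any position with how densely positions lie there. Over all sparse windows 61.1% of 1 kb bins were occupied, against 94.4% in the other windows. Within occupied bins there were 3.25 positions of the control table per kb against 3.89. These densities were 3.67 and 4.33 in the cyproterone acetate table, and 3.32 and 4.01 in the tamoxifen table, each of which also holds the pooled controls. By the control table, sparse windows therefore had 64.7% of the occupied length and 83.6% of the density of the other windows, giving 54.1% of their positions. Most of the deficit lay in DNA without any position.

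**Figure D1:**
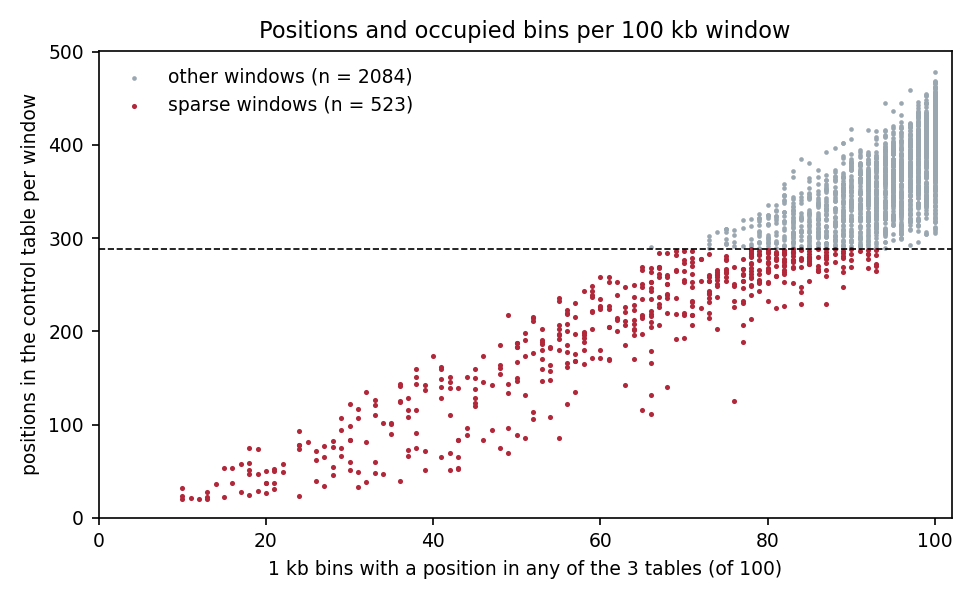
Each point is a 100 kb window of chromosome 2, with the number of 1 kb bins (of 100) that held a position in any of the 3 tables on the x axis and the positions in the control table on the y axis, red for the 523 sparse windows and grey for the 2084 other windows. Sparse windows reach from 10 to 93 occupied bins and other windows from 66 to 100, so the classes overlap in occupied length and part only at the limit of 288 positions that defines them.

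That empty DNA was gathered in long stretches. A stretch of at least 10 kb without a position in any of the 3 tables lay in 380 of the 523 sparse windows (72.7%) and in 140 of the 2084 other windows (6.72%). The longest stretch inside a sparse window had a median of 16520 bp and went up to 90642 bp, while its median in other windows was 3460 bp. The 143 sparse windows without such a stretch were closer to the rest, with 79.8% of bins occupied and a median of 269 positions, yet their density of 3.18 positions per occupied kb was no higher than the 3.29 of the windows with one. Unresolved bases, repeats, base composition and genes of these windows were not analysed here.

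The sparsest windows illustrate the extreme. The fifth of those named, with 22 positions, was tied with another and taken by its lower coordinate. In the windows from 68800001, 195300001, 254000001, 7200001 and 129500001 between 10 and 15 of 100 bins were occupied. The window from 254000001 had 18 and 32 reads in the controls, 34 with cyproterone acetate and 33 with tamoxifen. The window from 195300001 had 48 and 42 in the controls, 67 and 58.5. These windows stayed near empty in each of the 4 libraries, and at such depth their ratios carry wide counting error.

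Reads followed positions. The median sparse window had 278 reads in the shallower control and 303.5 in the deeper one, against 443 and 487 in the median other window. With cyproterone acetate it had 400.5 (quartiles 270.5 and 463.8) against 635, and with tamoxifen 324 (222.2 and 381.5) against 534. The mean reads per sparse window were 57.3% and 56.9% of those of the other windows in the controls, 57.9% with cyproterone acetate and 55.3% with tamoxifen. Per occupied kb the same shares were 88.6% and 87.9%, 89.5% and 85.5%. The treated libraries, which had no part in the choice, thus had a deficit close to that of the controls.

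The share of all reads of the chromosome in sparse windows was 12.57% (interval 12.51 to 12.63) in the shallower control, 12.48% (12.42 to 12.54) in the deeper one and 12.68% (12.63 to 12.73) with cyproterone acetate. With tamoxifen it was 12.18% (12.13 to 12.24). The tamoxifen value lay below both controls by more than the controls differed from each other, and the cyproterone acetate value lay above both. Counting at most 3 reads per position, the shares were 12.15% and 12.07% in the controls, 12.17% with cyproterone acetate and 11.82% with tamoxifen. Tamoxifen again had the lowest share, and cyproterone acetate was then level with the shallower control. A pair of controls gives only a rough measure of spread between libraries.

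The same windows were low in each library. When the 523 windows with the fewest positions holding reads were taken for each library on its own, 471 of those for cyproterone acetate (90.1%) and 459 of those for tamoxifen (87.8%) were sparse windows. For the controls, which made the choice, it was 474 and 487. In each of the 4 libraries all 523 sparse windows had fewer positions with reads than the median other window. The lowest other window had 238 such positions with cyproterone acetate and 199 with tamoxifen, and 353 and 341 sparse windows lay below these values.

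The borders of the domains were of 2 kinds. The 46 domains of 3 or more windows have 92 borders, of which 79 faced an other window, 12 a window with fewer than 20 positions and 1 the end of the chromosome. Where an other window lay outside, it had 94.6% and 91.6% of the reads of the median other window in the controls, 92.0% with cyproterone acetate and 88.9% with tamoxifen. The first window inside those borders had 66.3% and 62.6%, 62.5% and 60.8%. At the 12 borders facing a window with fewer than 20 positions reads went down outward instead, from 16.1% and 20.5%, 18.9% and 15.5% inside to 2.03% and 3.49%, 3.23% and 2.25% outside. Over all 92 borders the first window inside had 60.6% and 60.2%, 59.2% and 58.8%. The second window inside (56 windows) had 51.6% and 49.5%, 52.8% and 53.0%, and windows deeper inside (57 windows) 46.0% and 48.6%, 49.8% and 48.2%. Only longer domains reach that far inside, so these steps inward do not compare the same domains. All 4 libraries had this profile. The control positions set where a border lies, so a difference across it was given by the choice in the controls.

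**Figure D2:**
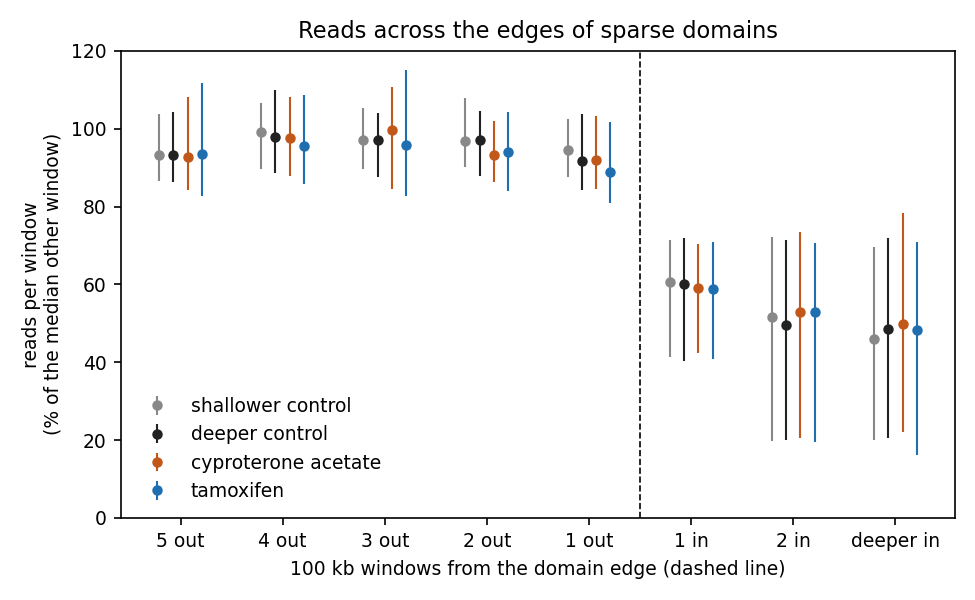
The x axis gives 100 kb windows from the border (dashed line) of a domain of 3 or more sparse windows. Windows outside are labelled "out", those inside "in", and all deeper windows "deeper in". The y axis gives the reads per window as a percentage of the median other window. Points are medians and bars quartiles in each library. Points outside take other windows only, so the 12 borders facing windows with fewer than 20 positions and the end of the chromosome have no point there. The first point inside takes all 92 borders. The second takes 56 windows and the point for deeper windows 57, from longer domains only. All 4 libraries are at 88.9 to 94.6% just outside and at 58.8 to 60.6% just inside.

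A few windows were sparse in positions but not in reads. In 16 of the 523 sparse windows the reads were at or above the median other window in all 4 libraries, and 6 of these lay in the 1.4 Mb at the start of the chromosome. The 14 windows of that domain averaged 470.9 and 505.1 reads in the controls, 785.8 with cyproterone acetate and 584.6 with tamoxifen, although each had only 166 to 288 positions. The window chr2:100001-200000 was one of them, with 270 control positions and 687, 797, 1248 and 988 reads in the shallower control, the deeper control, cyproterone acetate and tamoxifen. The window chr2:156800001-156900000, with 279 positions, had 893, 979.5, 1780 and 1311 reads in the same order. In such windows the name sparse holds for positions only.

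Read numbers per position were otherwise slightly above those of the other windows. The mean was 1.29 reads per position against 1.22 in the shallower control, 1.41 against 1.34 in the deeper one, 1.69 against 1.60 with cyproterone acetate and 1.51 against 1.46 with tamoxifen. The share of positions with no read in the library hardly differed, at 17.2% against 17.7% with cyproterone acetate and 21.8% against 21.7% with tamoxifen. What differed was the upper end. Positions with 10 or more reads made up 49.8 of every 10000 positions of sparse windows with cyproterone acetate (584 positions) and 19.2 in other windows (1640). With tamoxifen the rates were 36.1 (383) and 16.2 (1280), and in the controls 27.0 (280) against 4.96 (379) and 22.2 (231) against 1.49 (114). These few positions held 5.54% of the cyproterone acetate reads of sparse windows, against 1.74% in other windows, and 4.13% against 1.89% with tamoxifen. Rates are to be read within a library, since libraries differ in depth and rates did not simply follow it. The shallower control had higher rates than the deeper one in both classes of window.

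**Figure D3:**
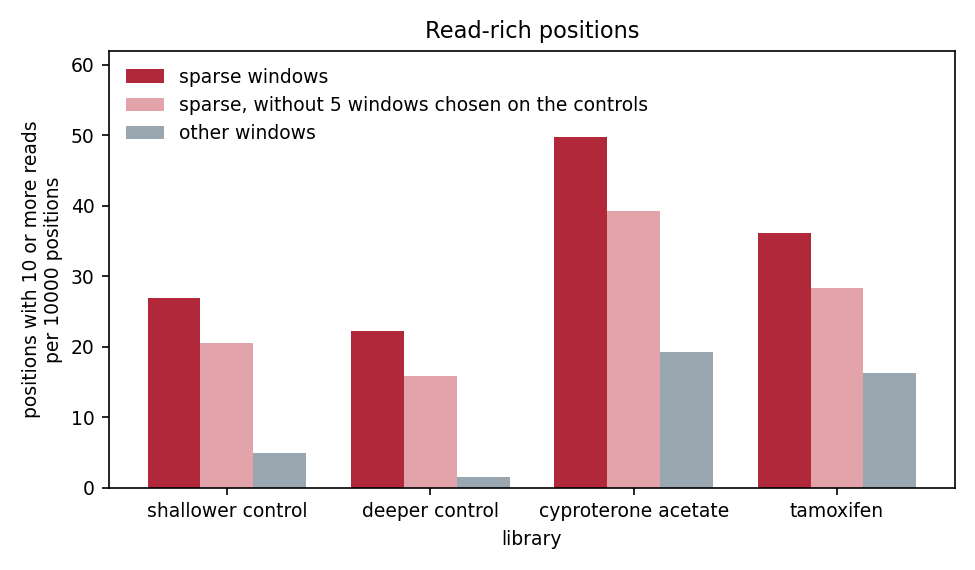
Bars give, for each library on the x axis, the number of positions with 10 or more reads per 10000 positions on the y axis, in sparse windows (red), in sparse windows without the 5 that hold most of them in the controls (pink) and in other windows (grey), with no error bars since each library is 1 sample. In each of the 4 libraries the red and pink bars stand above the grey one.

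The read-rich positions were clustered. The 5 sparse windows with most of them in the controls, from 400001, 49300001, 137100001, 156200001 and 156800001, held 68 of the 280 in the shallower control and 128 of the 584 with cyproterone acetate. Without these windows, an alternative chosen after seeing the data, the rates were 20.6 and 15.8 per 10000 in the controls, 39.2 with cyproterone acetate and 28.4 with tamoxifen, still above the other windows in each library. Read-rich positions with reads from cyproterone acetate lay within 5 kb of a stretch of 10 kb or more without positions in 17.1% of cases, against 9.05% of all sparse positions with reads, and with tamoxifen in 13.8% against 9.14%. In the controls the shares were 8.57% against 9.35% (shallower) and 11.7% against 9.28% (deeper), so the controls differed in direction.

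Among single positions, the strongest by control reads was chr2:160885563-160885762, with 38.5 and 56.5 reads in the controls, 120.5 with cyproterone acetate and 39 with tamoxifen. Next came 3 positions within 5795 bp of each other in the window from 49300001. The position chr2:49363963-49364162 had 46 and 42.5 control reads, 121.5 with cyproterone acetate and 87 with tamoxifen. The position chr2:49360113-49360312 had 40.5 and 43, 86.5 and 55.5, and the position chr2:49358168-49358367 had 34 and 40, 61 and 40.5. The fifth, chr2:197080358-197080557, had 28.5 and 44 control reads, 56 with cyproterone acetate and 50 with tamoxifen. Each of these stood far above the median of 1.5 to 2 reads of sparse positions with reads. The first was higher with cyproterone acetate than with tamoxifen by more than the library totals differ, and the window around it had unequal controls (313.5 and 524 reads).

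Spacing was measured as the distance between the centers of neighbouring positions in one window. It was never below 75 bp in any of the 3 tables. The median distance in sparse windows was 210 bp (quartiles 145 and 340) in the control table, against 200 bp in other windows. It was 190 bp against 185 bp in the cyproterone acetate table and 203 bp against 190 bp in the tamoxifen table. The median distance was therefore 5 to 13 bp longer. The means differed far more, at 444 against 270 bp, 392 against 243 bp and 433 against 262 bp in the same order. Distances above 1000 bp made up 4.42% against 1.27% in the control table, 3.51% against 0.904% in that of cyproterone acetate and 4.37% against 1.22% in that of tamoxifen. In the control table distances up to 1000 bp covered 55.7% of the spanned length of sparse windows, against 89.2% in the other windows. Sparse windows thus had slightly longer median distances and a larger share of long breaks, beside the lower density within occupied bins given above.

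**Figure D4:**
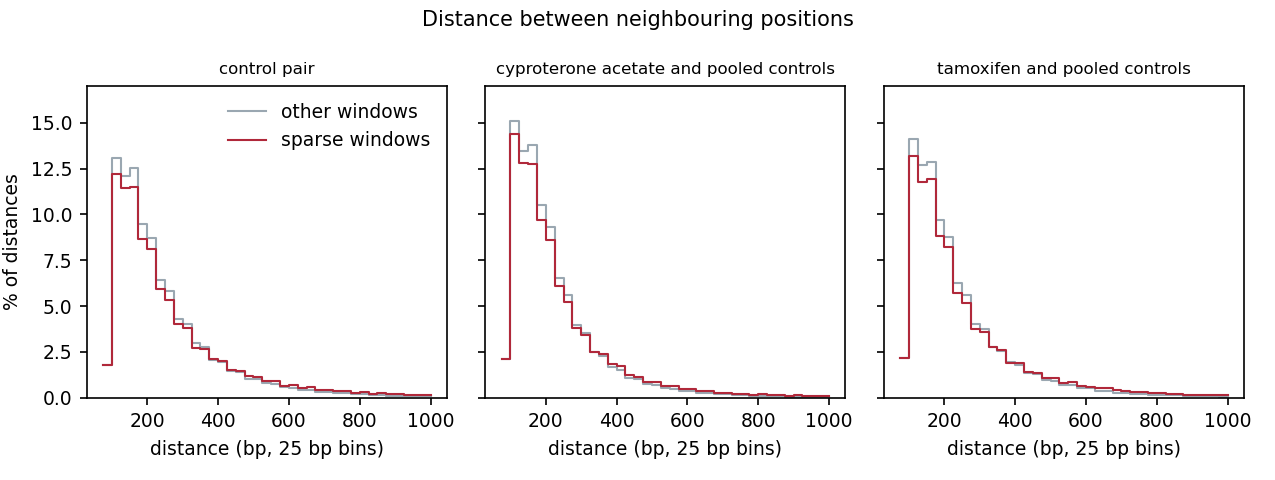
The 3 panels show, for each table, the share of distances between neighbouring positions (y axis, percent of all distances in the class) in 25 bp bins up to 1000 bp (x axis), for sparse windows in red and other windows in grey. Both curves are highest between 100 and 200 bp, where 43.8% of control distances of sparse windows and 47.1% of those of other windows lie, and the red curve runs slightly lower there.

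Fuzziness, the deposited score for the spread of reads about a position, barely differed. With cyproterone acetate its median was 46.5 (quartiles 39.1 and 53.9) in sparse windows and 46.8 in other windows. With tamoxifen it was 43.4 (38.2 and 53.2) against 44.3. For the pooled controls it was 48.9 against 49.2 in both treatment tables. The score moves with the number of reads, so positions of equal read number were also compared. At 2 reads it was 46.7 against 46.7 with cyproterone acetate and 43.8 against 44.9 with tamoxifen, at 3 reads 44.7 against 44.5 and 43.7 against 43.9, and at 4 reads 43.7 against 43.6 and 42.9 against 42.7. At 1 read the cyproterone acetate medians were 43.2 and 48.9, while the means there were 48.2 and 49.0. At 3 and 4 reads the medians of sparse and other windows differed by at most 0.21 in both libraries. In the authors' deposited tables the median log2 ratio of fuzziness, treated over pooled controls, was -0.14 in sparse and -0.13 in other windows for cyproterone acetate, and -0.13 and -0.12 for tamoxifen. For the control pair, shallower over deeper, it was 0.0060 and 0.011. The treatment ratios set 1 library against 2 pooled ones, and an effect of pooling on the score was not tested. Fuzziness scores of the single control libraries were not analysed here.

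The authors' own calls at single positions were about as frequent in sparse windows as on the whole chromosome. In the authors' deposited table for cyproterone acetate the false discovery rate of occupancy was at most 0.05 at 13.2% of 117357 sparse positions, beside 13.4% over all positions. For tamoxifen the authors' deposited table gave 16.2% of 106110, beside 16.6%, and for the control pair 15.4% of 103825, beside 15.7%. Positions at least 2-fold higher with cyproterone acetate made up 38.5% in the authors' deposited table, beside 37.4% over all, and those at least 2-fold lower 37.2% beside 38.1%. With tamoxifen the authors' deposited table had 33.0% higher, beside 33.1%, and 39.0% lower, beside 39.1%. Between the controls it had 31.2% higher in the shallower library, beside 31.1%, and 46.8% lower, beside 47.3%. These calls rest on single libraries and measure no spread between replicates, and the control pair yields them at like rates.

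Window by window, reads of each treated library were set against both controls summed, on a log2 scale with the median window at 0. Treated reads were summed over the positions of the treatment table and control reads over those of the control table. The positions summed are therefore not the same on both sides. Both ratios share the controls. The median sparse window was at 0.00 with cyproterone acetate and at -0.04 with tamoxifen, where other windows were at 0.00 and 0.01. The control pair, shallower over deeper, was at 0.01 in sparse windows. The tamoxifen median had no sharp step at the limit. It was -0.05 in windows with 20 to 100 positions, -0.04 at 101 to 200, -0.03 at 201 to 288, -0.05 at 289 to 332, -0.03 at 333 to 367, 0.02 at 368 to 401 and 0.09 at 402 to 478. Sparse windows were thus level with the windows just above the limit, and the densest windows were the highest. With cyproterone acetate the medians of these classes lay between -0.02 and 0.03.

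The ratios scattered more in sparse windows. The SD was 0.199 with cyproterone acetate against 0.129 in other windows, 0.180 against 0.145 with tamoxifen and 0.173 against 0.110 for the control pair. Fewer reads alone widen the scatter, and counting gives 0.121, 0.130 and 0.155 in sparse windows. Beyond counting the SD was 0.158 with cyproterone acetate (0.105 in other windows), 0.125 with tamoxifen (0.121) and 0.0770 for the control pair (0.0547). With at most 3 reads per position the values beyond counting for sparse windows were 0.0548 with cyproterone acetate and 0.0399 with tamoxifen. In other windows they were 0.0552 and 0.0733. For the control pair the SD of capped reads was 0.149 in sparse windows, below the 0.163 from counting, and 0.0978 against 0.0989 in other windows. Counting thus gave too much scatter for capped reads there, so the values beyond it are rough and settle no difference between the classes.

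**Figure D5:**
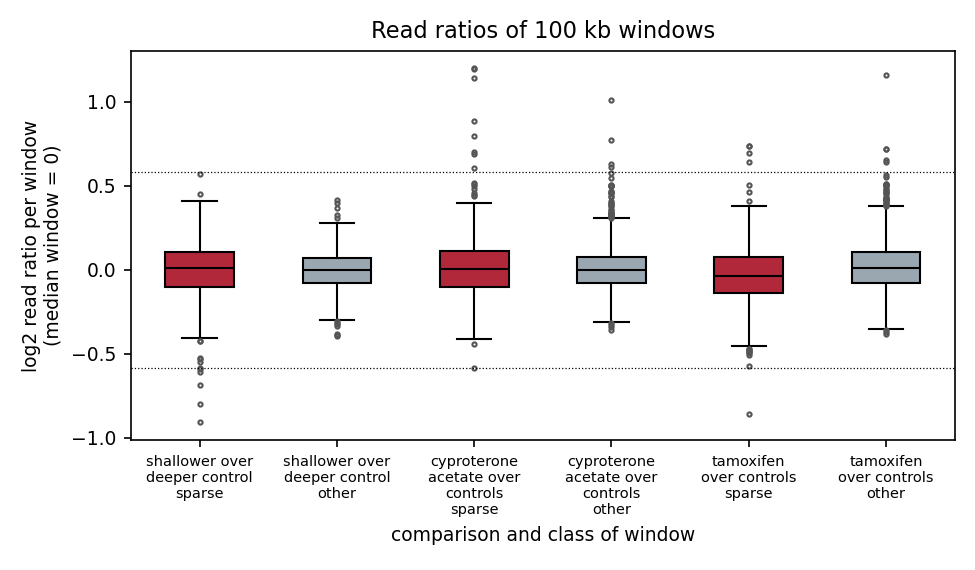
Boxes show the log2 read ratio per 100 kb window (y axis, median window at 0) for shallower over deeper control, cyproterone acetate over controls and tamoxifen over controls, in sparse windows (red) and other windows (grey), with median, quartiles, whiskers to 1.5 times the quartile range and single windows beyond them as points. Dotted lines mark a 1.5-fold difference. The highest sparse window reaches 1.20 with cyproterone acetate and 0.74 with tamoxifen, and the boxes of all 6 classes lie around 0.

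With cyproterone acetate 8 sparse windows were at least 1.5-fold higher and none lower, where 0.46% of all 2607 windows were higher and 0% lower. With tamoxifen 4 sparse windows were at least 1.5-fold higher and 1 lower, where 0.345% and 0.0384% of all windows were. For the control pair none was higher and 6 were lower, beside 0% and 0.23%. The 8 windows had from 111.5 to 1948 cyproterone acetate reads, the 4 had from 511.5 to 1179 tamoxifen reads, and the lower one had 23.5. With 1 library per treatment these counts have no test. Counting at most 3 reads per position, 1 of the 8 remained past the fold with cyproterone acetate and none of the 4 with tamoxifen.

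The same 3 windows were highest with either treatment. The window chr2:49300001-49400000 had 531 and 696.5 reads in the controls, 1948 with cyproterone acetate (log2 ratio 1.20, interval 1.10 to 1.30) and 1179 with tamoxifen (0.74, 0.62 to 0.86). The window chr2:1300001-1400000, at the inner end of the domain at the start of the chromosome, had 439 and 536 control reads, 1546.5 with cyproterone acetate (1.20, 1.08 to 1.31) and 935 with tamoxifen (0.74, 0.61 to 0.87). The window chr2:197100001-197200000 had 466 and 519.5 control reads, 1501 (1.14, 1.02 to 1.26) and 918.5 (0.70, 0.56 to 0.83). In each of these windows the counting intervals of both treatments, taken against the summed controls, lay above 0. The windows were picked for their high ratios, so these intervals test nothing. The 5 strongest positions of each window held 29.2%, 17.1% and 30.4% of the cyproterone acetate reads. With at most 3 reads per position the ratios were 0.17, 0.36 and 0.01 with cyproterone acetate and 0.04, 0.20 and 0.10 with tamoxifen.

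The lowest windows had few reads. With cyproterone acetate the lowest was chr2:133600001-133700000, with 35 and 35 control reads and 32 treated ones (-0.58, interval -1.25 to 0.03). The windows from 7200001 (-0.44, -1.03 to 0.12) and 162900001 (-0.41, -0.73 to -0.12) followed. With tamoxifen the lowest was chr2:163800001-163900000, with 35 and 40 control reads and 23.5 treated ones (-0.86, -1.56 to -0.15), ahead of those from 77200001 (-0.57, -0.95 to -0.20) and 76900001 (-0.51, -0.96 to -0.04). The counting intervals of the first and second of the cyproterone acetate windows included 0.

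Of the 8 windows at least 1.5-fold higher with cyproterone acetate, 5 lay in the 5 longest domains, which hold 12.0% of the sparse windows. Beyond the 3 above, the windows from 160800001 and 160900001 were at 0.89 and 0.69 (tamoxifen 0.02 and -0.05), that from 197300001 at 0.80 (0.10), that from 128800001 at 0.70 (0.64) and that from 158800001 at 0.61 (0.02). These were named after their values were seen. The window from 197300001 was the one that remained past the fold with at most 3 reads per position, at 0.62, on 126 treated reads against 43.5 and 61.5.

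Over whole domains the ratios were smaller, and they were computed again without the highest window and with capped reads, both alternatives added after seeing the data. The domain chr2:196700001-197700000 was at 0.51 (0.44 to 0.58) with cyproterone acetate and 0.29 (0.22 to 0.37) with tamoxifen, while the controls differed by -0.12. Without the window from 197100001 it was at 0.15 and 0.10, and with at most 3 reads per position at 0.09 and 0.11. The domain chr2:159800001-161000000 was at 0.35 (0.29 to 0.42) with cyproterone acetate and -0.07 with tamoxifen. Without the window from 160800001, where the controls themselves differed by -0.61, its cyproterone acetate value was 0.16, and with at most 3 reads per position 0.10. The domain at the start of the chromosome was at 0.22 (0.18 to 0.26) with cyproterone acetate and 0.06 with tamoxifen. Without the window from 1300001 these were 0.11 and -0.01, and with at most 3 reads per position 0.05 and -0.05. The longest domain was at 0.16 with cyproterone acetate, with 13 of 18 windows above 0, and at -0.03 with tamoxifen. Its cyproterone acetate value was 0.15 without its highest window and 0.07 with at most 3 reads per position, and its tamoxifen value -0.04 and -0.02. The domain chr2:156000001-156900000 was at 0.16 and 0.08, at 0.06 and 0.01 without the window from 156800001, and at -0.05 and 0.01 with at most 3 reads per position.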

How the data were processed

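Sperm DNA protected from micrococcal nuclease was sequenced in 2 control libraries, 1 of cyproterone acetate and 1 of tamoxifen. Alignment and handling of reads used Bowtie2, SAMtools 1.4 and build rn6, per the submitters' processing notes. For the position caller the sources name none (not given in the sources used here). Each row of the 3 chromosome 2 tables is a position. The coverage signal at its summit had been scaled by the authors. Fuzziness score, log2 ratios and the false discovery rate, an adjusted p-value, are the authors' own, as deposited. Position centers and the distances between summits, in bp, were deposited too.

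The treated library is the side headed control of its treatment table, and ratios were turned so that positive means higher under treatment. Replicates 1 and 2 are not told apart by the headers of the control table. The most frequent summit signal above 0 of a library was taken as the value of 1 read. Dividing by it gave reads in steps of 0.5 (100% of values). Neighbouring positions can lie closer than a fragment is long, and whether a fragment was counted at more than 1 position was not checked. Only reads at called positions enter the sums, and without molecular identifiers PCR copies cannot be recognised. Window ratios had 0.5 reads added on both sides, and a 1.5-fold difference was the limit for a call. Bins of 1 kb count as occupied when any of the 3 tables has a center there. Shares and ratios have exact binomial intervals, which treat these reads as independent counts. The windows and lists were chosen with earlier results of these data known. Named regions are the 5 longest domains, the 5 windows with fewest positions, 5 windows on each side of each limit, the 3 highest and 3 lowest ratios per treatment and the 5 strongest positions. The window code was tested on simulated data. Python 3.11.15, numpy 2.4.6, pandas 2.3.3 and scipy 1.17.1 were used. Another 26 columns of per-library values were not used. Genes, gene lists and sequence were not analysed here, because the reference at hand is of another build. Alternatives (limits, window grid, capped reads, pseudocount, scaling, single controls) are described in the closing section.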

Additional observations from a re-analysis of the deposited data

How the results depend on the processing

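No paired analysis was possible because each treatment has 1 library and the groups share no replicate pairs. With the upper limit 10% higher 813 windows were sparse, against 523; 10% lower, a 50 kb shift, or the same percentile of positions in the treated tables kept the number within 1.5 times. Joined across 1 window outside the limits the longest domain had 45 windows, and with the windows under 20 positions, an alternative added after seeing the data, 30, against 18. With at most 3 reads per position the shares of reads were 12.15% and 12.07% (controls), 12.17% (cyproterone acetate) and 11.82% (tamoxifen). Windows chosen on 1 control gave shares of 12.37% and 12.24% in the other control, 12.40% with cyproterone acetate under either choice, and 11.92% to 11.94% with tamoxifen, so tamoxifen stayed lowest. Against the shallower or deeper control alone the median log2 ratio was -0.0094 or 0.0096 with cyproterone acetate and -0.044 or -0.034 with tamoxifen. Relative to all reads of the chromosome the medians were -0.012 and -0.061, and with at most 3 reads per position 0.0048 and -0.024; the sign with cyproterone acetate is not fixed. Against single controls 8 to 9 windows were 1.5-fold higher with cyproterone acetate and 4 to 6 with tamoxifen, and with at most 3 reads per position 1 and 0. Mean deposited summit occupancy was also compared with the pooled controls at the positions of the same treatment table. The medians were then -0.0021 with cyproterone acetate and -0.033 with tamoxifen, and 9 and 5 windows were 1.5-fold higher. Over positions with reads the means were 1.94, 1.87, 2.04 and 1.93 reads (shallower control, deeper control, cyproterone acetate, tamoxifen). Over positions with at least 2 reads the median distance was 295 bp in the control table, 215 bp in the cyproterone acetate table and 225 bp in the tamoxifen table. The treatment tables also hold the pooled controls, and a larger share of their positions passes this limit. These medians are therefore not to be compared between tables. At 2 to 4 reads the median fuzziness was 45.9 and 43.9. The cause of these shifts was not tested. The alternative on unresolved bases was not run.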

Other observations

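The 58 windows with fewer than 20 control positions, which the rule leaves out, held 0.0359% and 0.0383% of the control reads, 0.0459% of those with cyproterone acetate and 0.0433% of those with tamoxifen. With cyproterone acetate the mean at their positions was 1.68 reads, against 1.60 in the windows with more than 288 positions. That mean rests on 427 positions, of which 5 held 10.4% of the reads. Over positions with reads the cyproterone acetate median was lower, at 1 read against 2. The tamoxifen mean was also slightly above that of the windows with more than 288 positions. In the controls the means were 1.06 against 1.22 and 1.23 against 1.34.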
